A study of Saccharomyces cerevisiae with 16 samples.

Results

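The 10 phosphate regulon genes of budding yeast described here were *PHO84*, *PHO89*, *PHO5*, *PHO11*, *PHO12*, *PHO3*, *SPL2*, *VTC1*, *VTC3* and *PHM6*, out of 6697 coding sequences (CDS) with a read count. The choice was by name and systematic identifier and not by a limit on their values, but with earlier results of these data known. They were followed through 16 RNA sequencing libraries from 8 RNA samples, with 1 polyadenylated (mRNA) and 1 ribodepleted (total RNA) library from each sample. Of the samples, 2 were populations sorted from *RPS22B*-GFP cells in LiCl by the brightness of the fusion between the small ribosomal subunit protein Rps22B and GFP, labelled sorted GFP high and sorted GFP low. A culture in LiCl was labelled *RPS22B*-GFP with the 5′ UTR intron deleted, and 5 wild-type (WT) cultures received LiCl, 20% glucose, 0.4 M NaCl, 0.32 µg/ml myriocin, which blocks sphingolipid synthesis, or 0.85 µM fenpropimorph, which blocks ergosterol synthesis. The LiCl, myriocin and fenpropimorph cultures are labelled IC50, a concentration selected for partial growth inhibition, all strains grew in the rich medium YPD, and the labels give re-inoculation every 8 h over 24 h for every sample. For the sorted cells the methods describe a shorter exposure to LiCl and washes in phosphate-buffered saline before sorting. The genotype label of the sorted cells also differs between library types, since only the ribodepleted libraries name an additional HOdelta::TDH3pr-mCherry-natMX4 insertion. A culture without a stressor was not analysed here, so every comparison below is between stressors or between strains.

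When phosphate is scarce, the transcription factor Pho4, together with Pho2, activates the genes of the PHO pathway, and when phosphate is plentiful the cyclin-dependent kinase Pho85 with its cyclin Pho80 phosphorylates Pho4 and keeps it out of the nucleus. Pho81 inhibits this kinase, and inositol pyrophosphates made by Kcs1 and Vip1 take part in sensing. The targets take up phosphate (Pho84 and Pho89), release it from organic phosphates outside the cell (the acid phosphatases Pho5, Pho11 and Pho12), restrain low-affinity uptake (Spl2) and store it as polyphosphate in the vacuole (the Vtc proteins). Pho3 is an acid phosphatase of the same family that is known to respond to thiamine rather than to phosphate, and the function of Phm6 is not known.

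Pho4 binds the hexamer CACGTG with high affinity and CACGTT more weakly, and both were searched on both strands of the 1000 bases before each start codon in the R64 genome. CACGTG reads the same on both strands, AACGTG is CACGTT on the other strand, and the 2 hexamers cannot share the same bases. CACGTG stood before 9 of the 10 members, all except *PHO3*, and before 697 of 6643 genes with a complete window (10.5%). CACGTT stood before 8 members, all except *PHO3* and *VTC1*, and before 28.5% of genes. In the shorter window from 250 bases before to 50 bases after the start codon, CACGTG was found in *SPL2* and *VTC1* and in 2.92% of genes. Distances run from the start codon to the nearest base of a hexamer and only hexamers that lie whole in a window were counted, so the *PHO5* hexamer at 248 bases, which crosses the edge of the shorter window, is not among these. A match of letters is not a binding site, and binding was not measured here. At least 1 CACGTG site is shown for each of the 9 members that have one, with another of *PHO84* and a CACGTT site of *PHO5*, so that the bases around the hexamer can be compared, each 5′ to 3′ on the strand of its gene, with the hexamer in capitals.
PHO84, 431 bases before its start codon, chrXIII:26222-26245, minus strand: taatagttcCACGTGgacgtgtta
PHO84, 409 bases before its start codon, chrXIII:26200-26223, minus strand: tatttccagCACGTGgggcggaaa
PHO89, 318 bases before its start codon, chrII:798831-798854, minus strand: acaatgcagCACGTGggagacaaa
PHO5, 357 bases before its start codon, chrII:431299-431322, minus strand: ttaaattagCACGTTttcgcatag
PHO5, 248 bases before its start codon, chrII:431190-431213, minus strand: tggcactcaCACGTGggactagca
PHO11, 278 bases before its start codon, chrI:225168-225191, plus strand: tggcgttcaCACGTGggtttaaaa
PHO12, 278 bases before its start codon, chrVIII:551807-551830, plus strand: tggcgttcaCACGTGggtttaaaa
SPL2, 142 bases before its start codon, chrVIII:375233-375256, minus strand: tgatgtacgCACGTGggcgaaagt
VTC1, 152 bases before its start codon, chrV:302640-302663, plus strand: agatattagCACGTGtctcggaga
VTC3, 340 bases before its start codon, chrXVI:517349-517372, minus strand: gcgagggccCACGTGgcttaatac
PHM6, 274 bases before its start codon, chrIV:1022586-1022609, minus strand: cttcgctgaCACGTGggaggtggg
The *PHO11* and *PHO12* sites lie on different chromosomes at the same distance and share all printed bases. *SPL2* had 4 copies of CACGTG within its window, the nearest 26 bases before the start codon, *PHO84* had 3 and *VTC3* had 2. Not all copies of these genes are printed, so the flanking bases shown are a selection and need not stand for every site. CACGTG also stood before 2 of 7 genes of PHO signalling (*PHO81* and *VIP1*), 7 of 10 other genes known to respond to the pathway, 3 of 7 other phosphate transport and polyphosphate genes and 0 of 15 thiamine genes.

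**Figure D1:**
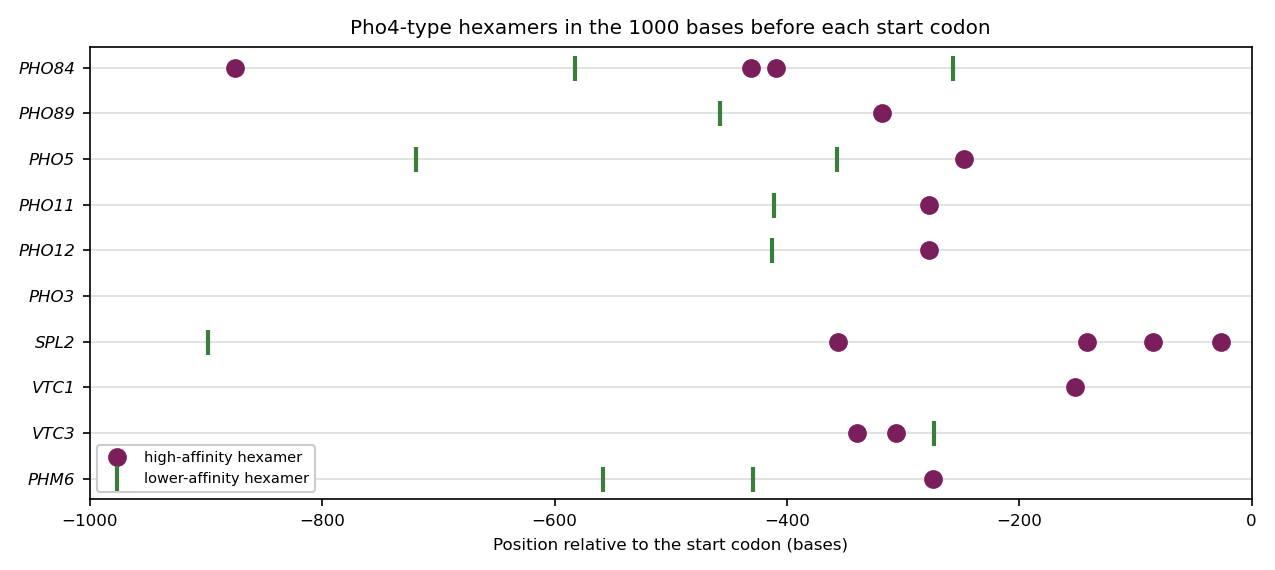
Positions of the high-affinity hexamer (circles) and the lower-affinity hexamer (bars) in the 1000 bases before each start codon, in bases on the horizontal axis, with 1 row per gene. *PHO3* has neither, and *SPL2* has 4 high-affinity hexamers, the nearest 26 bases before the start codon.

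The deposited values were whole read counts per CDS, with library totals between 29557254 and 50337762 in polyadenylated and between 36377857 and 53234402 in ribodepleted libraries. Levels are given as CPM, reads scaled to a common library size by trimmed mean of M values (TMM), and levels of different genes are compared only as CPM per kb of CDS. There was 1 library per sample and library type, so no difference has a replicate check and no test was possible. Intervals are exact 95% intervals that cover counting error only. A gene was called in a comparison if it was at least 2-fold higher, or at least 2-fold lower, in both library types, and the share of all 6602 genes with a mean of at least 10 reads in both types that met the same rule is given beside each count of members. All 10 members passed that filter. Both libraries of a sample come from the same RNA and are not replicates. A library is an average over its cells, so fewer expressing cells and less RNA per cell cannot be told apart. The culture labelled intron deletion had 594 (polyadenylated) and 269 (ribodepleted) reads on the *RPS22B* 5′ UTR intron, against 285 and 165 in WT with LiCl, at an intron read density of 9.48% and 8.88% of the CDS density, against 18.5% and 27.5%. These counts go against the label, so it is called the culture labelled intron deletion. *HIS3* had at most 1 read in each library of the sorted cells and of the culture labelled intron deletion, against 65.8 to 147 CPM in polyadenylated WT libraries, whereas *MET17* had 699, 879.6 and 77.2 polyadenylated CPM in these 3 samples and at most 1 read in each WT library. Strain background and condition therefore cannot be told apart in any comparison between these samples and WT cultures.

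Within the 5 WT cultures, the members were mostly high in NaCl or fenpropimorph and low in 20% glucose. *PHO84*, *PHO11*, *PHO12*, *PHO3*, *VTC1*, *VTC3* and *PHM6* had their highest level in NaCl in both library types, and *PHO89*, *PHO5* and *SPL2* had theirs in fenpropimorph. The lowest WT level was in 20% glucose for *PHO84*, *PHO89*, *PHO5*, *PHO11*, *PHO12*, *SPL2* and *PHM6*, in LiCl for *VTC1* and *VTC3* and in fenpropimorph for *PHO3*. The distance between the highest and the lowest WT culture was 34.6-fold for *PHO89*, 16.5-fold for *SPL2*, 14.7-fold for *PHO12*, 13.0-fold for *PHO11* and 6.83-fold for *PHO84* in polyadenylated RNA, and between 3.05-fold (*VTC1*) and 5.33-fold (*VTC3*) for the other members. The median gene spanned 2.20-fold, and the range of *PHO89* stood at percentile 98.0 of the 6602 genes and that of *VTC1* at percentile 69.3. In ribodepleted RNA the ranges ran from 3.25-fold for *PHM6* to 29.2-fold for *PHO89*, against a median of 2.19-fold.

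**Figure D2:**
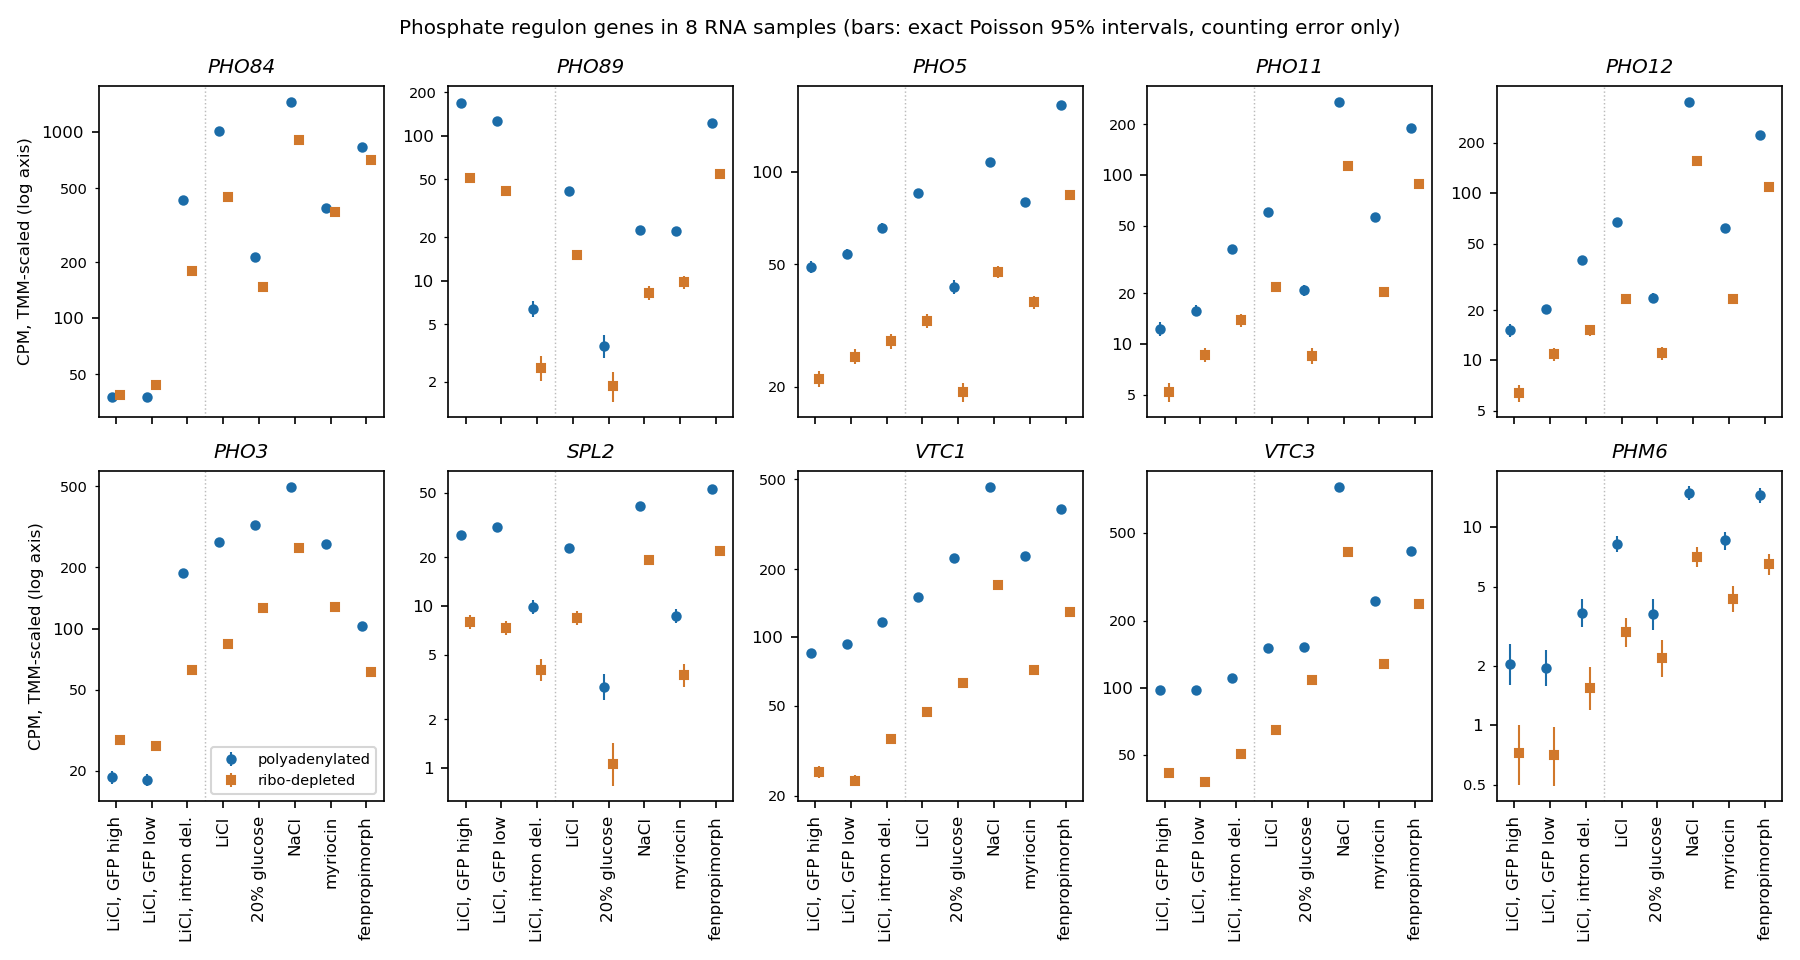
Level of each member in TMM-scaled CPM (log axis, a separate scale per panel) in the 8 RNA samples, with circles for polyadenylated and squares for ribodepleted libraries, 1 library per point and exact Poisson 95% bars for counting error only. Samples left of the dotted line do not come from the WT cultures. 7 members peak in NaCl among WT cultures and *PHO89* is high in the sorted cells and in fenpropimorph.

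Per length, *VTC1* or *PHO84* had the highest read density of the 10 members in every library. In polyadenylated RNA, *VTC1* led in 7 of 8 samples, with 219.7 CPM per kb in sorted GFP-high cells and 1179 CPM per kb in NaCl, and *PHO84* led in LiCl with 574 CPM per kb. The lowest read density belonged to *PHM6* in the sorted cells and fenpropimorph and to *PHO89* in every other sample. The gene with the second highest density differed more, since it was *PHO89* in both polyadenylated libraries of sorted cells and *PHO3* in 20% glucose.

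*PHO84* (YML123C, chrXIII:24037-25800, minus strand) encodes the high-affinity phosphate transporter, a proton symporter of the plasma membrane. In polyadenylated libraries its CPM were 37.8 in sorted GFP-high cells, 37.9 in sorted GFP-low cells, 433 in the culture labelled intron deletion, 1013 in LiCl, 213 in 20% glucose, 1454 in NaCl, 389 in myriocin and 833 in fenpropimorph. In ribodepleted libraries its CPM were 39.0 in sorted GFP-high cells, 43.8 in sorted GFP-low cells, 179 in the culture labelled intron deletion, 449.7 in LiCl, 147 in 20% glucose, 908 in NaCl, 372 in myriocin and 709 in fenpropimorph. Both sorted populations lay below every other sample in both library types, NaCl was highest and 20% glucose was lowest among WT cultures. The second place went to LiCl in polyadenylated RNA and to fenpropimorph in ribodepleted RNA, so the sign of LiCl over fenpropimorph differed between library types, at 0.28 (0.26 to 0.30) and −0.66 (−0.68 to −0.63) on the log2 scale. *PHO84* is known to have an antisense transcript, and since the strand setting of the counting is not given in the sources used here, reads of both strands cannot be told apart.

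*PHO89* (YBR296C, chrII:796798-798522, minus strand) encodes the sodium-coupled high-affinity phosphate transporter, which is known to be induced at alkaline pH and through calcineurin as well as by the PHO pathway. Its polyadenylated CPM were 169.7 in sorted GFP-high cells, 127 in sorted GFP-low cells, 6.38 in the culture labelled intron deletion, 41.8 in LiCl, 3.52 in 20% glucose, 22.4 in NaCl, 22.0 in myriocin and 122 in fenpropimorph. Its ribodepleted CPM were 50.9 in sorted GFP-high cells, 41.4 in sorted GFP-low cells, 2.50 in the culture labelled intron deletion, 15.0 in LiCl, 1.86 in 20% glucose, 8.21 in NaCl, 9.75 in myriocin and 54.5 in fenpropimorph. The sorted cells and fenpropimorph were at the top and the culture labelled intron deletion and 20% glucose at the bottom, an order unlike that of *PHO84*. In polyadenylated RNA neither sorted GFP-low cells and fenpropimorph nor NaCl and myriocin differed beyond counting error, with log2 changes of 0.03 (−0.10 to 0.16) for NaCl over myriocin. In 20% glucose the level rested on 122 and 75 reads. The ratio of *PHO89* to *PHO84* per kb was 4.59 in polyadenylated and 1.34 in ribodepleted RNA of sorted GFP-high cells and 3.42 and 0.967 in sorted GFP-low cells. It was between 0.00925 and 0.150 in the other 12 libraries, with the highest of these in fenpropimorph. The balance of transporter reads was therefore near or above 1 only in the 4 libraries of sorted cells.

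**Figure D3:**
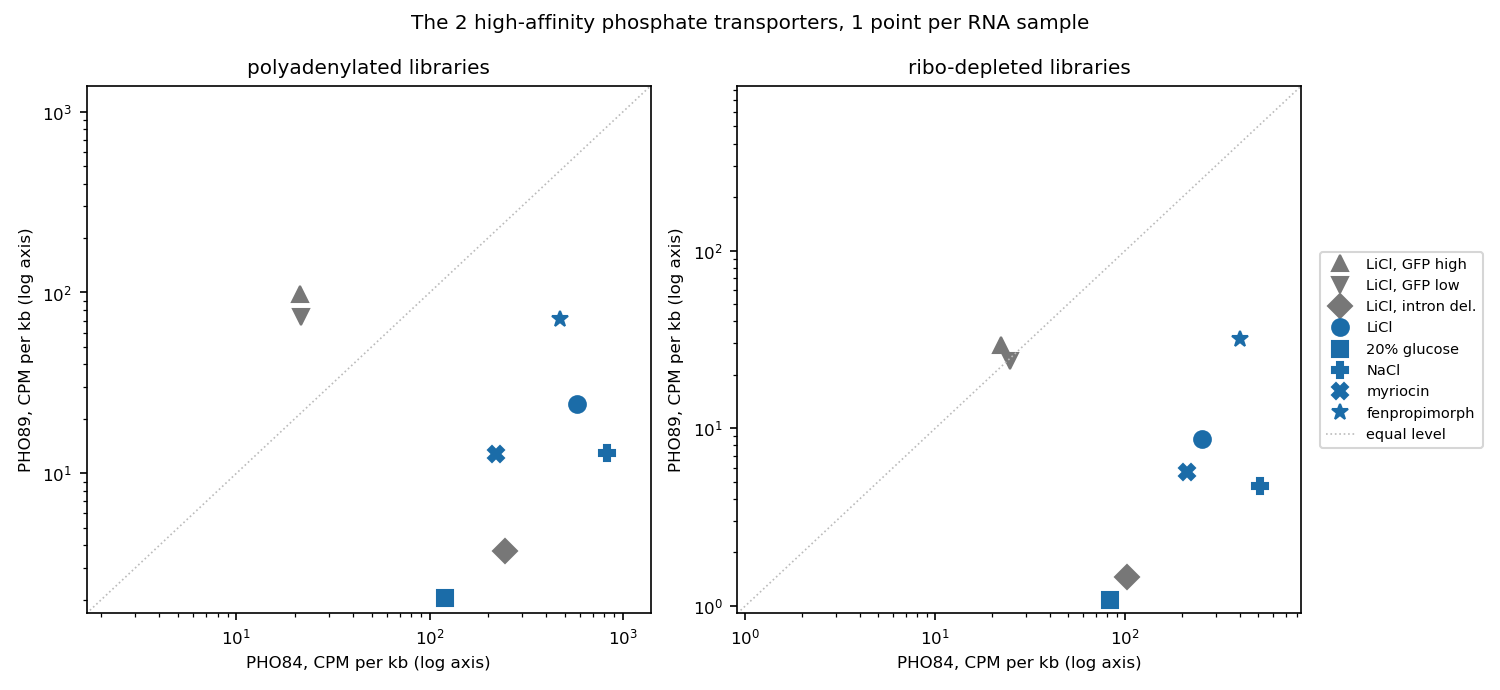
*PHO89* against *PHO84* in CPM per kb of CDS (log axes), 1 point per RNA sample, polyadenylated libraries on the left and ribodepleted libraries on the right, with grey symbols for sorted cells and the culture labelled intron deletion, blue symbols for WT cultures and a dotted line of equal level. Sorted cells lie at ratios of 4.59 and 3.42 on the left, and the other samples lie below the line in both panels.

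The acid phosphatase genes *PHO5* (YBR093C, chrII:429548-430951, minus strand) and *PHO3* (YBR092C, chrII:427698-429101, minus strand) lie in tandem on the same strand, 446 bases apart, and their CDS are 86.5% identical over 1404 bases without sharing a stretch of 100 bases. *PHO5* encodes the main secreted acid phosphatase of the pathway. Its polyadenylated CPM were 49.1 in sorted GFP-high cells, 54.0 in sorted GFP-low cells, 65.8 in the culture labelled intron deletion, 85.2 in LiCl, 42.3 in 20% glucose, 108 in NaCl, 79.7 in myriocin and 166 in fenpropimorph. Its ribodepleted CPM were 21.2 in sorted GFP-high cells, 25.0 in sorted GFP-low cells, 28.1 in the culture labelled intron deletion, 32.7 in LiCl, 19.2 in 20% glucose, 47.3 in NaCl, 37.6 in myriocin and 84.0 in fenpropimorph. Fenpropimorph was highest and 20% glucose lowest in both types, over a range of 3.92-fold and 4.37-fold, the narrowest among the secreted phosphatases of the pathway. *PHO3*, the constitutive phosphatase, had polyadenylated CPM of 18.6 in sorted GFP-high cells, 18.0 in sorted GFP-low cells, 188 in the culture labelled intron deletion, 266 in LiCl, 321 in 20% glucose, 495 in NaCl, 261 in myriocin and 103 in fenpropimorph. In ribodepleted libraries *PHO3* had CPM of 28.4 in sorted GFP-high cells, 26.5 in sorted GFP-low cells, 62.7 in the culture labelled intron deletion, 83.8 in LiCl, 126 in 20% glucose, 248 in NaCl, 128 in myriocin and 61.0 in fenpropimorph. Here the sorted cells were lowest and fenpropimorph, the highest sample for *PHO5*, was the lowest WT culture. *PHO5* per kb relative to *PHO3* per kb was accordingly 1.62 and 1.38 in fenpropimorph, against 0.132 and 0.152 in 20% glucose. In sorted GFP-high cells the ratio was 2.64 in polyadenylated RNA but 0.744 in ribodepleted RNA, so the order of the 2 genes depended on the library type.

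*PHO11* (YAR071W, chrI:225460-226863, plus strand) and *PHO12* (YHR215W, chrVIII:552099-553502, plus strand) encode near-identical secreted acid phosphatases close to chromosome ends, and their CDS differ at 4 of 1404 bases. Of 1305 stretches of 100 bases in each gene, 982 occur elsewhere in the genome (75.2%), whereas no such stretch was found for the other 8 members, so reads of this pair may have been exchanged or lost in the authors' counting and the genes are given together with their sum. The summed level in polyadenylated libraries was 27.4 CPM in sorted GFP-high cells, 36.0 in sorted GFP-low cells, 76.2 in the culture labelled intron deletion, 128 in LiCl, 44.5 in 20% glucose, 618 in NaCl, 118 in myriocin and 411 in fenpropimorph. In ribodepleted libraries it was 11.6, 19.5, 28.9, 45.1, 19.5, 269, 43.6 and 197 CPM in the same order of samples. NaCl and fenpropimorph stood well above the other 6 samples, and LiCl and myriocin were close to each other. *PHO12* held between 51.6% (LiCl, ribodepleted) and 57.8% (NaCl, ribodepleted) of the reads of the pair, with exact binomial intervals of 49.4% to 53.7% and 56.9% to 58.7%.

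*SPL2* (YHR136C, chrVIII:374654-375100, minus strand) encodes the inhibitor that lowers low-affinity phosphate uptake when the pathway is active. Its polyadenylated CPM were 27.4 in sorted GFP-high cells, 30.8 in sorted GFP-low cells, 9.85 in the culture labelled intron deletion, 22.7 in LiCl, 3.18 in 20% glucose, 41.1 in NaCl, 8.69 in myriocin and 52.6 in fenpropimorph. Its ribodepleted CPM were 7.95 in sorted GFP-high cells, 7.32 in sorted GFP-low cells, 4.02 in the culture labelled intron deletion, 8.46 in LiCl, 1.06 in 20% glucose, 19.2 in NaCl, 3.75 in myriocin and 21.8 in fenpropimorph. Fenpropimorph and NaCl were highest and 20% glucose, with 110 and 43 reads, was lowest. Unlike for *PHO84*, the sorted cells lay close to LiCl, and in ribodepleted RNA LiCl, sorted GFP-high and sorted GFP-low cells did not differ from their neighbour in the order beyond counting error. The low-affinity transporter genes *PHO87* and *PHO90* are given further on with the other genes of phosphate transport.

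*VTC1* (YER072W, chrV:302806-303195, plus strand) and *VTC3* (YPL019C, chrXVI:514511-517018, minus strand) encode subunits of the vacuolar transporter chaperone complex, which makes polyphosphate and moves it into the vacuole. *VTC3* had polyadenylated CPM of 98.1 in sorted GFP-high cells, 97.5 in sorted GFP-low cells, 111 in the culture labelled intron deletion, 151 in LiCl, 153 in 20% glucose, 804 in NaCl, 247 in myriocin and 414 in fenpropimorph. In ribodepleted libraries *VTC3* had CPM of 41.4 in sorted GFP-high cells, 37.6 in sorted GFP-low cells, 50.3 in the culture labelled intron deletion, 64.6 in LiCl, 109 in 20% glucose, 407 in NaCl, 127 in myriocin and 239 in fenpropimorph. NaCl was highest and fenpropimorph second in both library types, while LiCl was the lowest WT culture and the sorted cells were below all cultures. *VTC1* followed the same order of WT cultures, between 151 CPM in LiCl and 459.8 CPM in NaCl in polyadenylated RNA and between 46.8 and 169.8 CPM in ribodepleted RNA. *PHM6* (YDR281C, chrIV:1022007-1022321, minus strand) was the member with the fewest reads, with 1.95 to 14.9 CPM in polyadenylated RNA and 0.703 to 7.10 CPM in ribodepleted RNA. Its NaCl and fenpropimorph levels did not differ beyond counting error in either type, with log2 changes of 0.04 (−0.13 to 0.22) and 0.13 (−0.12 to 0.37) for NaCl over fenpropimorph.

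Between WT cultures, the largest number of members called in a single direction was in 20% glucose over NaCl, both osmotic stressors. Since the paper describes the glucose culture as late exponential, stressor and growth phase cannot be told apart in comparisons with it. In 20% glucose, 9 of the 10 members were at least 2-fold lower than in NaCl, all except *PHO3*, against 4.63% of all genes, and 0 were higher, against 4.12%. The median log2 change of glucose over NaCl was −2.53 in polyadenylated and −2.02 in ribodepleted RNA, against 0.00 and 0.01 over all 6602 genes. *PHO12* was lowest in relative terms in polyadenylated RNA, with −3.88 (−3.98 to −3.78), and *SPL2* in ribodepleted RNA, with −4.16 (−4.65 to −3.73). *PHO84* changed by −2.77 (−2.81 to −2.74) and −2.62 (−2.66 to −2.58) in polyadenylated and ribodepleted RNA. *VTC1* was nearest to the limit, with −1.04 (−1.07 to −1.0) and −1.43 (−1.50 to −1.37), and *PHO3* had −0.62 (−0.66 to −0.59) and −0.97 (−1.02 to −0.93). Scaled by total CDS counts, 7 members were called in place of 9, all lower.

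NaCl was also compared with both drugs that act on membrane lipids. Over myriocin, 6 members were at least 2-fold higher in NaCl (*PHO84*, *PHO11*, *PHO12*, *SPL2*, *VTC1* and *VTC3*), against 0.606% of all genes, and 0 were lower, against 5.39%. *PHO12* had log2 changes of 2.50 (2.44 to 2.56) and 2.75 (2.65 to 2.85), and *VTC3*, the largest of the VTC members here, had 1.70 and 1.68. *PHO5* had 0.44 and 0.33, and *PHO89* had 0.03 (−0.10 to 0.16) and −0.25 (−0.46 to −0.03), near 0 in both types. *VTC1* had 1.01 in polyadenylated RNA, just past 2-fold. Over fenpropimorph, *PHO3* was at least 2-fold higher in NaCl, with 2.27 (2.22 to 2.32) and 2.02 (1.96 to 2.09), and *PHO89* was at least 2-fold lower, with −2.45 (−2.55 to −2.34) and −2.73 (−2.90 to −2.56), against 7.06% and 10.6% of all genes, shares near those of the members. The other 8 members did not reach 2-fold in both types, and the median over all 10 members was 0.41 and 0.36.

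**Figure D4:**
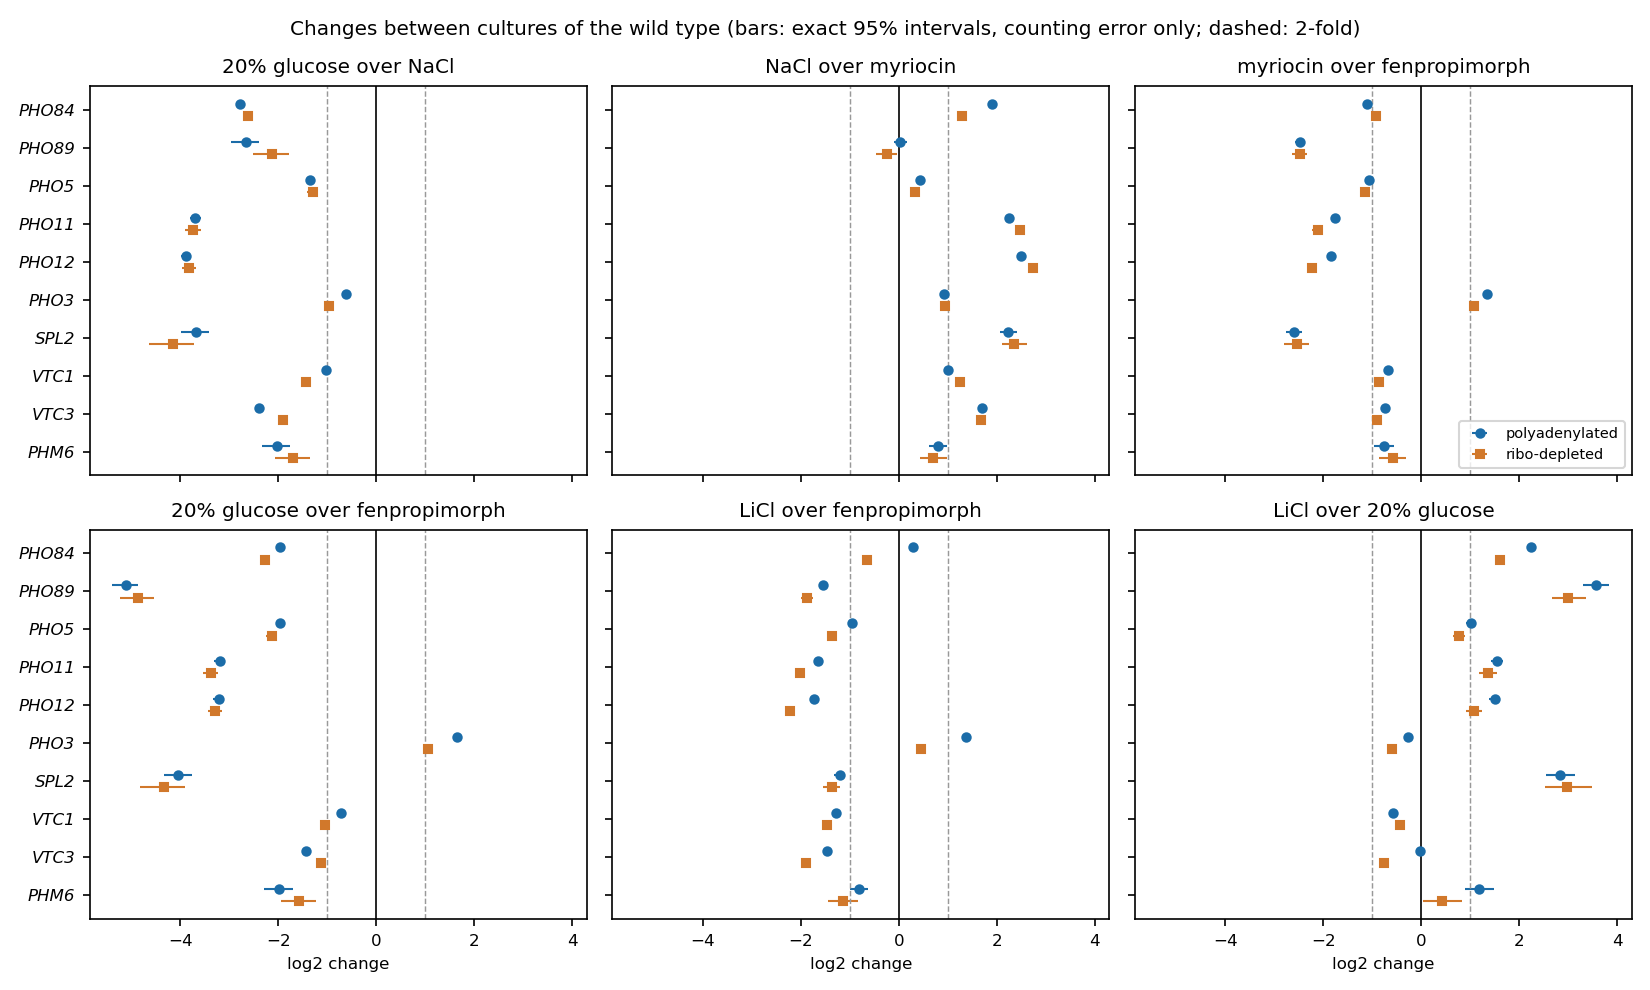
Log2 change of each member in 6 of the 10 comparisons between WT cultures, with the first named culture over the second, circles for polyadenylated and squares for ribodepleted RNA, exact 95% bars for counting error only and dashed lines at 2-fold. In glucose over NaCl all points lie below 0, in NaCl over myriocin the *PHO89* points lie at 0.03 and −0.25, and in the panels of glucose, LiCl or myriocin over fenpropimorph *PHO3* lies on the opposite side to most members.

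In 20% glucose over fenpropimorph, 8 members were at least 2-fold lower, all except *PHO3* and *VTC1*, against 7.03% of all genes, and *PHO3* was higher, against 2.98%. *PHO89* had the largest change of any member between WT cultures, with −5.11 (−5.39 to −4.86) and −4.87 (−5.23 to −4.54), and *SPL2* followed with −4.04 and −4.34. *PHO3* had 1.64 (1.59 to 1.70) and 1.05 (0.98 to 1.12), and with total-count scaling the split was 0 higher and 8 lower. In 20% glucose over myriocin, 4 members were at least 2-fold lower (*PHO89*, *PHO11*, *PHO12* and *SPL2*), against 5.15% of all genes, and 0 were higher, against 1.89%. *PHO89* had −2.64 (−2.93 to −2.37) and −2.39 (−2.77 to −2.03) in that comparison, while *VTC1* had −0.03 (−0.07 to 0.01) and −0.19 (−0.26 to −0.11). These comparisons share the glucose culture with those above and are not independent of them.

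In myriocin over fenpropimorph, which block different branches of lipid synthesis, 5 members were at least 2-fold lower (*PHO89*, *PHO5*, *PHO11*, *PHO12* and *SPL2*), against 3.27% of all genes, and *PHO3* was higher, against 1.94%. *SPL2* had −2.59 (−2.76 to −2.43) and −2.53 (−2.80 to −2.29), and *PHO89* had −2.48 (−2.58 to −2.37) and −2.48 (−2.64 to −2.33). *PHO84* had −1.10 and −0.93, past 2-fold only in polyadenylated RNA, and the VTC members and *PHM6* had between −0.90 and −0.58. The *PHO3* changes were 1.35 and 1.07, and with total-count scaling the split was 0 higher and 6 lower.

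LiCl, the stressor of main interest in the study, gave no single direction for the members. Over 20% glucose, 5 members were at least 2-fold higher in LiCl (*PHO84*, *PHO89*, *PHO11*, *PHO12* and *SPL2*), against 15.0% of all genes, and 0 were lower, against 12.4%. *PHO89* had 3.56 (3.30 to 3.84) and 3.0 (2.66 to 3.37), whereas *VTC3* had −0.02 (−0.08 to 0.03) and −0.75 (−0.82 to −0.68). Over NaCl, 4 members were at least 2-fold lower in LiCl (*PHO11*, *PHO12*, *VTC1* and *VTC3*), against 16% of all genes, and 0 were higher, against 18.4%. *VTC3* had −2.41 (−2.45 to −2.38) and −2.66 (−2.71 to −2.60), and *PHO89* was the only member with changes above 0 in both types, at 0.90 and 0.86. Over fenpropimorph, 6 members were at least 2-fold lower (*PHO89*, *PHO11*, *PHO12*, *SPL2*, *VTC1* and *VTC3*), against 10.2%, and 0 were higher, against 10.5%. *PHO12* had −1.72 (−1.78 to −1.66) and −2.22 (−2.32 to −2.12). Over myriocin, *SPL2* alone was at least 2-fold higher, with 1.39 (1.22 to 1.56) and 1.17 (0.90 to 1.46), which is 1 of 10 members against 12.4% of all genes and so a share near that of all genes, and 0 were lower, against 11.9%. *PHO84* had 1.38 in polyadenylated but 0.27 in ribodepleted RNA.

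In the culture labelled intron deletion, the log2 changes over WT with LiCl were below 0 for all 10 members in both library types, between −2.71 (*PHO89*) and −0.36 (*VTC1*) in polyadenylated and between −2.57 (*PHO89*) and −0.22 (*PHO5*) in ribodepleted RNA. *PHO84*, *PHO89* and *SPL2* were at least 2-fold lower, 3 of 10 members against 1.15% of all genes, and 0 were higher, against 1.27%. *PHO89* had 252 and 102 reads, against 2142 and 686 in WT, with log2 changes of −2.71 (−2.91 to −2.52) and −2.57 (−2.90 to −2.28). *PHO84* had −1.22 (−1.25 to −1.20) and −1.33 (−1.37 to −1.29), and *SPL2* had −1.20 (−1.38 to −1.04) and −1.07 (−1.35 to −0.81). The intron reads go against the label, and the strains differ in *HIS3* and *MET17* reads and by label in the GFP fusion, so deletion, fusion and strain background cannot be told apart here.

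Between the sorted populations the members differed little. In sorted GFP-high over sorted GFP-low cells 0 members were called in either direction, against 0% higher and 0.0757% lower of all genes. *PHO12* had the lowest changes, −0.42 (−0.57 to −0.26) and −0.77 (−0.98 to −0.56), and *PHO11*, which shares most of its sequence with it, had −0.36 and −0.74. *PHO89* had 0.42 (0.37 to 0.47) and 0.30 (0.21 to 0.39), the only member whose intervals lay above 0 in both types. *PHO84* had 0.00 (−0.11 to 0.10) and −0.17 (−0.26 to −0.08), and for *PHM6* the intervals were wide, at 0.06 (−0.41 to 0.53) and 0.03 (−0.69 to 0.75).

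Set against WT with LiCl, sorted GFP-high cells had *PHO89* at least 2-fold higher, 1 of 10 members against 9.82% of all genes and so a share near that of all genes, and *PHO84*, *PHO11*, *PHO12*, *PHO3* and *PHM6* lower, 5 of 10 against 12.9%. In sorted GFP-low cells *PHO89* was higher, against 9.41% of all genes, and *PHO84*, *PHO11*, *PHO12*, *PHO3* and *PHM6* were lower, against 12.6%, and both comparisons share the LiCl culture. *PHO84* changed by −4.74 (−4.82 to −4.66) and −3.53 (−3.60 to −3.46) in GFP-high cells and by −4.74 and −3.36 in GFP-low cells, the largest of any member in this contrast. *PHO89* changed by 2.02 and 1.77 in GFP-high and by 1.60 and 1.47 in GFP-low cells. *PHO3* differed between library types, with −3.84 in polyadenylated but −1.56 in ribodepleted RNA of GFP-high cells. Against the culture labelled intron deletion, which like the sorted cells had *MET17* reads and at most 1 *HIS3* read in a library, *PHO89* was higher in GFP-high cells by 4.73 (4.55 to 4.92) and 4.34 (4.06 to 4.65), 1 of 10 members against 9.07% of all genes, and *PHO84*, *PHO11*, *PHO12* and *PHO3* were lower, 4 of 10 against 9.98%. With total-count scaling this split became 2 higher and 1 lower. In GFP-low cells *PHO89* was higher by 4.31 and 4.04, against 8.39% of all genes, and *PHO84* and *PHO3* were lower, against 10.1%, a split of 2 higher and 1 lower with total-count scaling. *PHO84* changed by −3.52 and −2.20 in GFP-high and by −3.51 and −2.03 in GFP-low cells. Sorting, washing in phosphate-buffered saline, length of LiCl exposure, strain and growth state cannot be told apart in these comparisons.

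Among 7 genes of PHO signalling, *PHO4* was called at least 2-fold higher in LiCl than in 20% glucose, with log2 changes of 1.03 and 1.03, and than in fenpropimorph, with 1.27 and 1.09. This was 1 of 7 genes against 15.0% and 10.5% of all genes, a share near that of all genes. In both comparisons 0 were lower, against 12.4% and 10.2%. In polyadenylated RNA *PHO4*, the activator, had 45.6 and 39.6 CPM in sorted GFP-high and GFP-low cells, 89.6 in the culture labelled intron deletion, 123 in LiCl and 51.0 to 65.9 in the other WT cultures. *PHO81*, the kinase inhibitor, had 165 CPM in NaCl, 132 in fenpropimorph and 117 in LiCl, against 75.1 in myriocin and 64.1 in 20% glucose, and did not reach 2-fold in both library types in any of the 16 comparisons. The cyclin gene *PHO80* ranged from 17.3 to 31.9 CPM and the kinase gene *PHO85* from 78.6 to 125 CPM among WT cultures in polyadenylated RNA, and *PHO2* from 43.6 to 62.9 CPM. *PHO2* was at least 2-fold higher in both sorted populations than in the culture labelled intron deletion, with 1.08 and 1.20 in GFP-high cells and 1.07 and 1.0 in GFP-low cells. This was 1 of 7 genes against 9.07% and 8.39% of all genes. *PHO4* was lower in sorted GFP-high cells than in WT with LiCl, by −1.43 and −1.23, 1 of 7 genes against 12.9% of all genes.

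The 10 other genes known to respond to the pathway differed in direction among themselves. *VTC4*, the catalytic subunit of the polyphosphate polymerase, had 816 CPM in NaCl, against 484 in fenpropimorph, 312 in myriocin, 308 in 20% glucose and 208 in LiCl in polyadenylated RNA. In 20% glucose over NaCl *VTC4* was the gene of this list that was lower, with −1.40 and −1.07, *PHM8* was higher, with 1.56 and 1.85, and the other 8 were not called, which is 1 of 10 in each direction against 4.63% of all genes lower and 4.12% higher. In NaCl over myriocin *VTC4* was higher, with 1.39 and 1.40, 1 of 10 against 0.606% of all genes, and *PHM7* and *PHM8* were lower, 2 of 10 against 5.39%. In LiCl over NaCl *PHO86*, *VTC2* and *VTC4* were lower, 3 of 10 against 16% of all genes. *PHM7*, *PHM8*, *VTC5* and *GIT1* were higher there, 4 of 10 against 18.4%. *PHM7*, of unknown function, was far higher in LiCl than in any other WT culture, with 258 CPM in LiCl, against 5.19 CPM in NaCl to 14.5 CPM in myriocin in polyadenylated RNA, and it also had 368 and 377 CPM in sorted GFP-high and GFP-low cells. *PHO8*, the vacuolar alkaline phosphatase, was called in myriocin over fenpropimorph alone, where it was lower, by −1.29 and −1.29. With *PHM8*, 2 of 10 were lower there, against 3.27% of all genes. *GDE1*, which hydrolyses glycerophosphocholine, was lower in 20% glucose than in fenpropimorph, by −1.70 and −1.20, with *GIT1*, the glycerophosphoinositol permease, and *PHM8*. These were 3 of 10 against 7.03% of all genes, and 0 were higher, against 2.98%.

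Among 7 other genes of phosphate transport and polyphosphate turnover, calls between WT cultures were made in 2 of the 10 comparisons, LiCl and NaCl over fenpropimorph. *PHO90*, a low-affinity transporter, was higher in NaCl than in fenpropimorph, by 1.46 and 1.41, 1 of 7 genes against 7.06% of all genes. *PPN2*, a vacuolar polyphosphatase, was lower in LiCl and in NaCl than in fenpropimorph, 1 of 7 against 10.2% and 10.6%. *PHO87*, the other low-affinity transporter of the plasma membrane, was lower in the sorted cells than in WT with LiCl, by −1.77 and −1.10 in GFP-high and −1.97 and −1.22 in GFP-low cells. With *PPN2*, 2 of 7 genes were lower in each of these, against 12.9% and 12.6% of all genes. Of 15 thiamine genes, *THI7*, the thiamine transporter, was higher in 20% glucose than in fenpropimorph, by 1.62 and 1.76, as was *PHO3*, and the other 14 were not called there, against 2.98% of all genes higher and 7.03% lower. In NaCl over fenpropimorph, where *PHO3* was also higher, *THI5* and *THI12* were lower, 2 of 15 against 10.6% of all genes, and 0 were higher. *THI7* had 1.09 and 0.85 there and was not called. In myriocin over fenpropimorph, the remaining comparison with *PHO3* higher in the culture named first, 0 of the 15 were called, against 1.94% higher and 3.27% lower, shares so low that a count of 0 says little about the list. Where *PHO3* was lower, in the sorted cells, *THI4*, a thiamine synthesis gene, was higher than in WT with LiCl, by 1.43 and 1.18 in GFP-high and 2.09 and 1.39 in GFP-low cells, and *THI7* was lower in GFP-high cells, by −1.42 and −1.28. This was 1 of 15 higher against 9.82% and 9.41% of all genes in GFP-high and GFP-low cells. In GFP-high cells 1 of 15 was lower, against 12.9%, and in GFP-low cells 0, against 12.6%. Over the culture labelled intron deletion, *THI5*, *THI11* and *THI12* were lower in GFP-high cells, 3 of 15 against 9.98% of all genes, and 0 were higher, against 9.07%. In GFP-low cells 0 of 15 were called, against 8.39% higher and 10.1% lower. *THI5*, *THI11*, *THI12* and *THI13* are near-identical copies, so reads may be split among them. The thiamine genes called were thus few in each comparison where *PHO3* was called, and they had no single direction.

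The levels of the members did not vary as a single group over the 16 libraries. These libraries pool WT cultures with the sorted cells and the culture labelled intron deletion. Pearson correlations of log2 CPM, centred within library type, were 0.998 for *PHO11* with *PHO12*, 0.973 for *VTC1* with *VTC3*, 0.934 for *PHO84* with *PHM6* and 0.889 for *PHO84* with *PHO11*. *PHO89* had 0.755 with *SPL2*, and between −0.67 (*PHO3*) and 0.312 (*PHO5*) with the other members, −0.29 with *PHO84* among them. The sorted cells, low in *PHO84* and high in *PHO89*, weigh on the value of −0.29, which need not hold within WT cultures. Among WT cultures both genes were lowest in the glucose culture in both library types, but *PHO84* was highest in NaCl and *PHO89* in fenpropimorph. Correlations within WT cultures alone were not computed. *SPL2* had 0.680 with *PHO5* but 0.230 with *PHO84* and 0.258 with *VTC1*. *PHO3* had 0.822 with *PHO84* and 0.704 with *VTC1*, but 0.307 with *PHO5* and −0.25 with *SPL2*. These values describe 8 RNA samples measured in both library types, whose points share RNA and strain, and carry no test. Among 6422 genes with a mean of at least 50 reads, those most like *PHO84* were *ILV5* (0.972), *RPS9A* (0.963), *GLY1* (0.942), *MGS1* (0.937) and *SWT1* (0.936), and those most like *PHO3* were *BMT6* (0.992), *DUS3* (0.988), *SLM6* (0.985), *NOG2* (0.982) and *TOD6* (0.982). Both rankings use all 16 libraries, so the low levels of *PHO84* and *PHO3* in the sorted cells weigh on them.

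The polyadenylated to ribodepleted ratio of the members also varied, with CPM on total CDS counts in both types. Its median over the 8 samples was 0.16 on the log2 scale for *PHO84*, at percentile 13.0 of 6602 genes, and 1.83 for *VTC1*, at percentile 84.7, against a median of 1.09 over all genes. *PHO84* had −0.05 in sorted GFP-high and −0.30 in sorted GFP-low cells, 1.50 in the culture labelled intron deletion, 1.47 in LiCl, 0.74 in 20% glucose, 0.20 in NaCl, 0.03 in myriocin and 0.12 in fenpropimorph. The *PHO84* ratio was thus highest in both unsorted LiCl cultures. WT with LiCl also had the highest ratio of the 8 samples for *PHO89*, *PHO5*, *PHO11*, *PHO12*, *PHO3*, *VTC3* and *PHM6*, so this was not particular to *PHO84*. Ratios were not adjusted for differences between whole libraries. *PHO3* had −0.62 and −0.65 in sorted GFP-high and GFP-low cells, against 1.80 in the culture labelled intron deletion and 1.97 in WT with LiCl, and the remaining cultures lay between. The other members stayed between 0.50 and 2.04 in every sample.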

How the data were processed

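The authors aligned paired 100-base reads to the R64 genome (TopHat or HISAT2) and deposited raw read counts per CDS and per 5′ UTR intron from featureCounts, not normalised, beside feature lengths in bp. Strand, pair and multi-mapping settings are not given in the sources used here. Groups follow the labels. The members and gene lists were chosen with earlier results of these data known. Counts were scaled within library type by edgeR 4.0.16 TMM factors (R 4.3.3, Python 3.11.15). Log2 ratios used a pseudocount of 0.5, with exact conditional Clopper-Pearson 95% intervals for counting error. With 1 library per sample and type, no p-value was computed, and 16 pairs of samples were compared. Named are the members, the *PHO4*, *PHO2*, *PHO80*, *PHO85* and *PHO81* regulators, called genes of the fixed lists, and the 5 genes with the most similar pattern to *PHO84* and to *PHO3*. Intron counts other than that of *RPS22B* were not used. All 17 sequence names in the count table matched the reference, and 10 of 10 members had a start and a stop codon at the tabulated coordinates. Alternatives were DESeq2 1.42.0 size factors, total-count CPM, TMM without ribosomal protein genes, other filters, pseudocounts and fold limits, and the sum of *PHO11* and *PHO12*. Calculations were tested on simulated data.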

Additional observations from a re-analysis of the deposited data

How the results depend on the processing

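Of 1920 recomputed log2 changes of the members, 1660 stayed within their counting interval and 260 moved outside it. Among members called in the comparison, 0 changes reversed in sign. Sign changes of members that were not called were not counted separately. The number of members called was identical in 16 of 16 comparisons without the filter, with a mean of at least 50 reads and with a pseudocount of 5, in 12 with DESeq2 size factors, in 14 with TMM without ribosomal protein genes and in 11 with total-count CPM, which shifted the median of all genes by between −0.34 and 0.58. Total-count CPM gave 3 members called in sorted GFP-high over the culture labelled intron deletion. With a limit of 1.5-fold the count was identical in 1 of the 16 comparisons and within 1.5 times of that at 2-fold in 10, for example 10 in place of 9 in glucose over NaCl. In the other 6, 8 members were called in LiCl over NaCl, 4 in LiCl over myriocin, 7 in glucose over myriocin, 4 in NaCl over fenpropimorph, 6 in the culture labelled intron deletion over LiCl and 6 in sorted GFP-low over that culture. With a limit of 4-fold the count was identical in 2 comparisons and within 1.5 times in 4, and in the other 12 it was 2 in LiCl over glucose, 0 in LiCl over myriocin, 0 in LiCl over fenpropimorph, 5 in glucose over NaCl, 1 in glucose over myriocin, 4 in glucose over fenpropimorph, 3 in NaCl over myriocin, 2 in myriocin over fenpropimorph, 1 in the culture labelled intron deletion over LiCl, 3 in sorted GFP-high and 2 in sorted GFP-low over LiCl, and 2 in sorted GFP-high over the culture labelled intron deletion. *PHO11*, *PHO12* and their sum, added after the data had been seen for *PHO12* alone, were each called in 11 of the 16 comparisons. Of 320 counting intervals 19 included 0, and 24 with halved counts. No paired analysis was possible because each condition has 1 library per type. Without replicates, differences between conditions and between repeat cultures of 1 condition cannot be told apart, and intervals and calls do not cover biological variation.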
